A study of Mus musculus with 27 samples.

Results

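The BCL2 family genes described here are Bcl2, Bcl2l1, Mcl1, Bax, Bak1, Bcl2l11, Bad, Bid, Pmaip1 and Bbc3, 10 of the 35275 genes in the expression tables, taken by symbol as the main survival and death genes of the family. Their transcripts were measured by RNA-seq in CD8 T cells at 3 stages and in 3 genotypes that differ in let-7, a family of microRNAs. Each of the 9 groups had 3 libraries, 27 in all. Values are FPKM, fragments counted per kilobase of gene length and scaled to the library's total, and all 10 genes passed the filter on low values at every stage.

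Proteins of the BCL2 family govern whether the outer mitochondrial membrane is opened and cytochrome c released. Bcl-2, Bcl-xL and Mcl-1 keep the membrane closed, Bax and Bak open it, and the BH3-only proteins, among them Bim, Noxa and Puma, engage the survival proteins or activate Bax and Bak. In T cells, Bcl-2 and Mcl-1 are known for the maintenance of resting cells, Bcl-xL for its induction through CD28 after activation, and Bim for the death of cells at the end of a response.

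All mice were P14+ Rag2-/-, so that the T cells carried a single transgenic receptor for the gp33 peptide of the lymphocytic choriomeningitis virus, and were 6 to 10 weeks old. WT cells had no further transgene. In lin28Tg cells the Lin28b transgene blocks the maturation of let-7, and it is active already in the thymus (its promoter is not given in the sources used here). In let-7Tg cells a doxycycline-inducible let-7g transgene at the Col1a1 locus supplies let-7. Doxycycline was given to experimental and control mice alike and was added to the cultures at 2 μg/mL. Naive cells were not stimulated, 12 h cells were naive cells stimulated with 2 μg/mL anti-CD3 and 5 μg/mL anti-CD28, and day 5 cells were cytotoxic T lymphocytes (CTLs) grown with irradiated splenocytes, 2 μg/mL anti-CD3 and, from 48 h, 100 U/mL IL-2. The paper's methods name lymph nodes and spleens as the tissues harvested, and do not give the source of the naive libraries separately.

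The libraries held 13862706 to 23591069 counted reads, and the members 62 to 18450 reads per library, with Bad lowest and Bcl2 highest. Lin28b was at 9.94 to 67.9 FPKM in the lin28Tg libraries and at no more than 0.0590 in the others, as the labels require. Markers of CD8 T cells (7 genes, none at 0) summed to 3503 to 3910 FPKM in naive lin28Tg libraries and to 4014 to 4599.5 in the other naive libraries. They were also lowest in lin28Tg at 12 h (971 to 1152 against 1190.5 to 1376) and at day 5 (2008 to 2291 against 2313 to 2833), and 3, 4 and 3 of the 7 genes were called lower in lin28Tg than in let-7Tg cells at the 3 stages. At day 5, 1 of the 7, Lck, was called higher in lin28Tg than in let-7Tg cells. The naive lin28Tg libraries stood apart in markers of other cells: 10 myeloid genes summed to 219 to 873 FPKM, against 32.6 to 75.4 in the naive WT and let-7Tg libraries, and 9 of the 9 tested were called higher than in either. Erythroid markers (6 genes) followed, with 494 to 1994 FPKM in naive lin28Tg libraries, 153 to 292 in WT and 1.92 to 38.7 in let-7Tg. At 12 h the erythroid sum was 83.3 to 693 in lin28Tg libraries, 26.1 to 103 in WT and 0.774 to 4.34 in let-7Tg, and the myeloid sum was at most 21.8 anywhere. At day 5 neither sum was above 13.8, and Lyz2, S100a8 and S100a9 were at 0 in all WT libraries. The day 5 myeloid sum was 9.39 to 13.8 in lin28Tg, 4.16 to 7.02 in WT and 3.80 to 6.85 in let-7Tg libraries. All 3 myeloid genes tested there (Itgam, Cd68 and Fcgr3) were called higher in lin28Tg than in let-7Tg CTLs, and Itgam also than in WT. B cell markers (8 genes) summed to at most 35.7 FPKM, highest in naive lin28Tg, with Pax5 at 0 in the naive WT and let-7Tg libraries, and CD4 T cell markers (4 genes) to at most 83.5, again in naive lin28Tg. The CD4 T cell list was divided there. Cd4 and Zbtb7b were called higher in naive lin28Tg cells than in WT and let-7Tg, and Cd40lg and Foxp3 lower than in both. NK cell markers (5 genes) were highest in lin28Tg CTLs, at 138 to 299.6 FPKM. WT CTLs had 67.3 to 94.02 and let-7Tg CTLs 18.1 to 47.0. Klra8 and Klra4 were at 0 in lin28Tg CTLs, and Ncr1 and Klra8 at 0 in WT. In lin28Tg CTLs Klrb1c (60.8 to 158 FPKM) and Eomes (67.7 to 142) made up nearly all of the sum, and Ncr1 was at most 0.0305. The paper lists Eomes among genes of terminally differentiated CTLs. Naive NK sums were 77.3 to 121 in lin28Tg, 28.7 to 55.9 in WT and 20.1 to 37.1 in let-7Tg. All 5 genes were called higher in naive lin28Tg than in let-7Tg cells, and Ncr1, Klrb1c and Eomes also than in WT. Among 5 stromal markers, Pecam1 was called lower in lin28Tg than in the other genotypes in naive cells (38.2 to 38.5 FPKM against 62.4 to 73.6) and in CTLs (2.51 to 6.62 against 12.7 to 33.5), while Col3a1, Col1a2 and Cdh5 were called higher in lin28Tg than in WT naive cells. Several of these sums differ by genotype, and their part in the differences given here was not tested. In bulk samples of this kind, fewer cells of a type and less RNA per cell cannot be told apart.

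**Figure D1:**
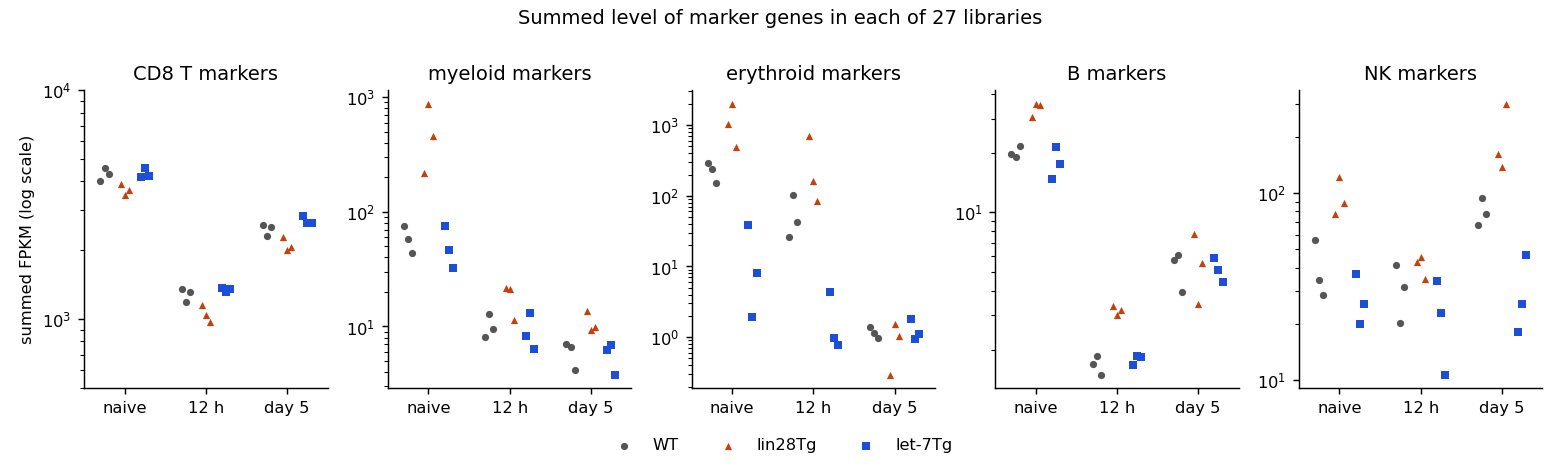
Summed FPKM of marker genes (log scale) in each of the 27 libraries, by stage and genotype, for CD8 T, myeloid, erythroid, B and NK markers. Points are single libraries; the naive lin28Tg libraries lie at 219 to 873 FPKM for myeloid markers, above all other naive libraries, while the CD8 T markers lie between 3503 and 4599.5 FPKM in all naive libraries.

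Gene by gene, the clearest patterns were these. Bcl2l1 rose 14.7-fold in WT cells within 12 h, and at 12 h its level was ordered by genotype, highest in lin28Tg, then WT, then let-7Tg cells. Bcl2 fell in WT cells at 12 h and then rose 7.57-fold to its highest level in day 5 CTLs, where the libraries ran in the reverse order and let-7Tg exceeded lin28Tg 1.64-fold. Pmaip1, which encodes the BH3-only protein Noxa, was 2.19-fold higher in lin28Tg than in let-7Tg naive cells and 2.11-fold higher in CTLs. Mcl1 was highest in naive cells and lowest in CTLs in each genotype.

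**Figure D2:**
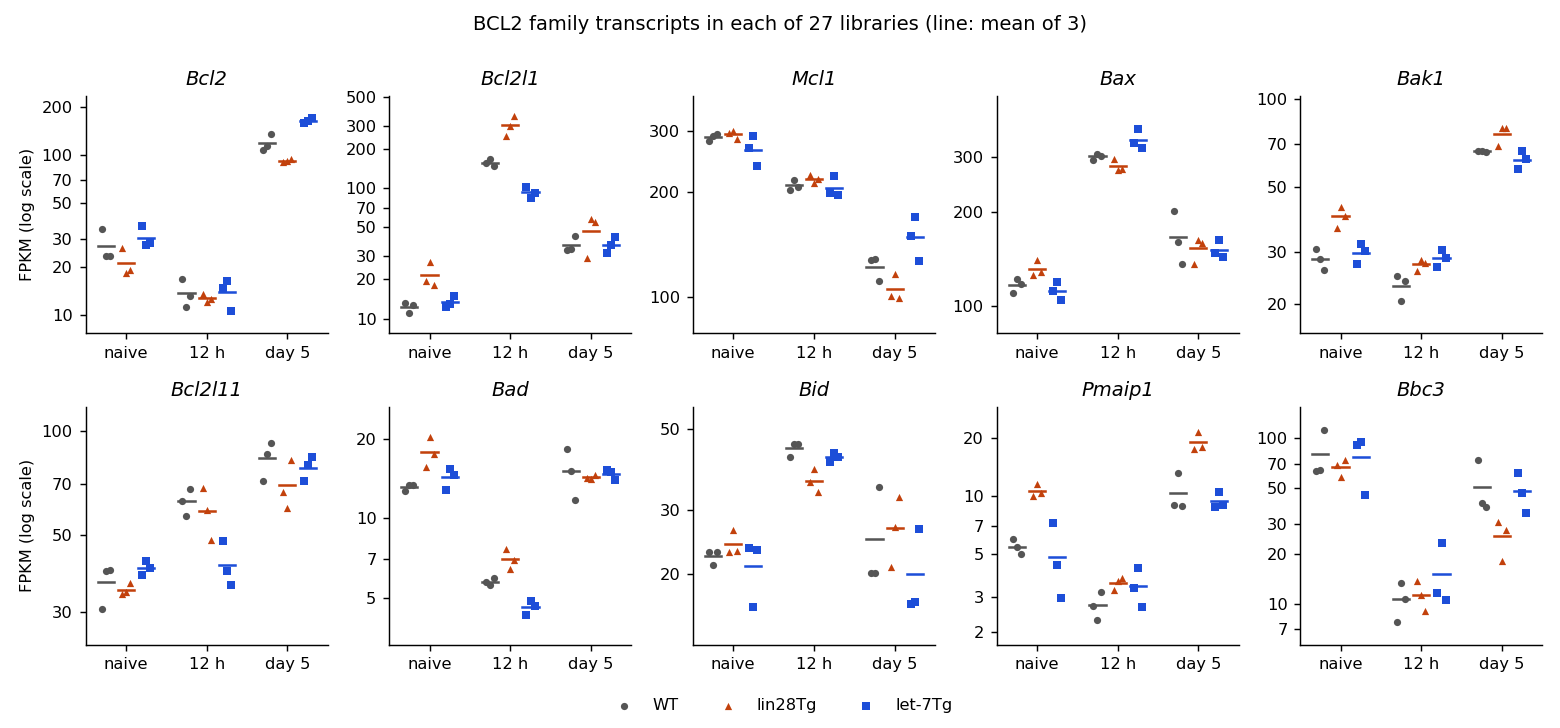
FPKM of each of the 10 genes (log scale) in every library, by stage, with 1 point per library and a line at the mean of 3. The 12 h libraries of Bcl2l1 fall into 3 separate ranges by genotype, from 84.9 to 102 FPKM in let-7Tg up to 249.8 to 359.6 in lin28Tg, and Bcl2 does so at day 5.

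To ask which members depend on let-7, lin28Tg, WT and let-7Tg cells were compared within each stage (limma on log2 of scaled FPKM plus 0.5, Benjamini-Hochberg adjustment over all genes tested, called below 0.05). The comparisons with WT share the WT libraries. In naive cells, 4 of the 10 genes were called between lin28Tg and WT cells, all higher in lin28Tg, where 34.9% of 13262 genes were called. Between lin28Tg and let-7Tg naive cells 6 were called, 5 higher and 1 lower in lin28Tg, against 44.3% of all genes. At 12 h, 2 were called between lin28Tg and WT cells (8.49% of all genes), 2 between let-7Tg and WT cells (3.26%) and 4 between lin28Tg and let-7Tg cells (30.9%). At day 5, 1 was called between lin28Tg and WT CTLs (4.35%), while lin28Tg set against let-7Tg gave 4, 2 in each direction (21.6%). Each of these counts within a stage lay within 2 genes of what the share of all genes would give. By themselves they do not set the family apart from other genes. With 10 genes this margin is wide where the share is low, and the family was not tested as a set. Ranges of libraries that did not overlap between genotypes, given below for single members, were common too. Between lin28Tg and let-7Tg cells they were found for 54.05% of all genes tested in naive cells, 46.3% at 12 h and 42.4% at day 5. The members with such ranges numbered 7, 5 and 5. In the comparisons with WT the shares of all genes were 17.1 to 48.99%. Separate ranges alone thus do not set a member apart from other genes.

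No member was called by limma between let-7Tg and WT cells in the naive state, where 0.935% of all genes were called, and none had an unadjusted p below 0.05. At day 5 again 0 were called, against 0.937% of all genes, and 1 (Bcl2) had an unadjusted p below 0.05. The count-based fit (voom on the reads behind the FPKM values) called 0 members in both. The median log2 difference of the 10 genes between lin28Tg and let-7Tg cells was 0.22 in naive cells (-0.03 over all genes), 0.01 at 12 h (-0.02) and 0.09 at day 5 (0.00).

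**Figure D3:**
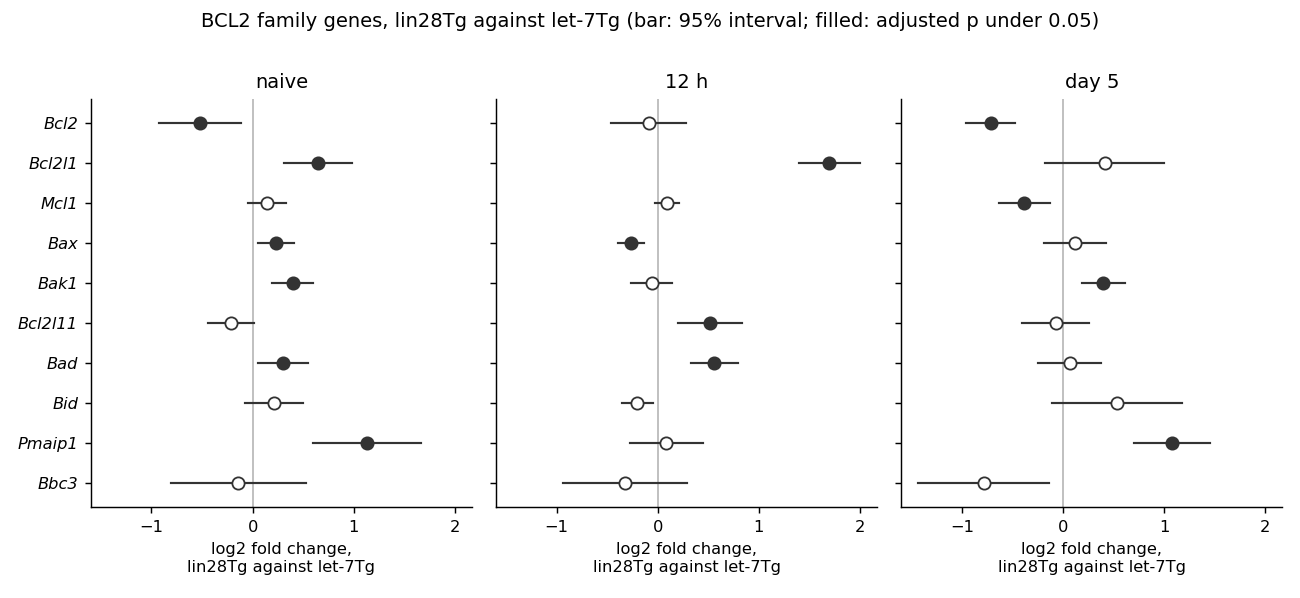
Log2 fold change of each gene, lin28Tg against let-7Tg, in naive, 12 h and day 5 cells, with the 95% interval as a bar and filled points where the adjusted p was below 0.05. Bcl2l1 at 12 h lies farthest to the right at 1.70, Bcl2 and Pmaip1 lie on opposite sides at day 5 (-0.71 and 1.08), and open points mark differences that did not pass the test.

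Among the survival genes, Bcl2l1 encodes Bcl-xL (its transcript count also covers the shorter Bcl-xS form, which gene-level values do not separate). It lies at chr2:152780668-152831728 on the minus strand (GRCm38). In naive cells it stood at 13.2, 11.01 and 12.7 FPKM in WT, at 12.2, 12.9 and 14.9 in let-7Tg and at 19.3, 27.02 and 18.1 in lin28Tg libraries. All 3 lin28Tg libraries were above all others. The lin28Tg cells were 1.63-fold higher than WT (log2 0.70, SE 0.15, adjusted p = 0.00666) and higher than let-7Tg (log2 0.65, 95% interval 0.31 to 0.98, adjusted p = 0.00687). The lin28Tg library with the highest Bcl2l1, replicate 2, also had the highest myeloid and erythroid marker sums, and without it the difference from WT was 0.54 on the log2 scale (adjusted p = 0.0114), and the Bcl2l1 difference from let-7Tg was 0.48 (adjusted p = 0.0116). What the marker RNA contributed was not tested.

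After 12 h of stimulation, Bcl2l1 reached 156, 168 and 149 FPKM in WT libraries, 249.8, 301 and 359.6 in lin28Tg and 102, 84.9 and 92.5 in let-7Tg. The 3 genotypes did not overlap. The lin28Tg cells exceeded WT 1.88-fold (log2 0.91, 95% interval 0.61 to 1.22, adjusted p = 0.00391) and let-7Tg 3.24-fold (log2 1.70, SE 0.14, adjusted p = 4.55e-05). These calls held in every alternative run. The let-7Tg cells were below WT (log2 -0.78, 95% interval -1.09 to -0.48, adjusted p = 0.025), a call that was lost without WT replicate 1, 2 or 3 or let-7Tg replicate 2 or 3 (adjusted p 0.0547 to 0.0917) and with no filter on low values (0.0624). The erythroid sums of the 12 h lin28Tg replicates 1, 2 and 3 were 693, 162 and 83.3 FPKM, and their part in the Bcl2l1 difference was not tested.

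In day 5 CTLs Bcl2l1 stood at 33.6, 34.0 and 43.0 FPKM in WT, 31.9, 36.5 and 42.0 in let-7Tg and 29.2, 57.6 and 55.3 in lin28Tg libraries. The lin28Tg libraries split, with replicate 1 below every other CTL library and the other two above. The difference from let-7Tg was not called (log2 0.41, 95% interval -0.18 to 1.00, adjusted p = 0.294), but without lin28Tg replicate 1 it was 0.74 (adjusted p = 0.0176). Tested directly, the lin28Tg against let-7Tg difference was larger at 12 h than in naive cells by 1.05 (adjusted p = 0.0205) and smaller at day 5 than at 12 h by 1.31 (log2 -1.31, adjusted p = 0.00256), as limma interaction terms over all 27 libraries. Of these the first was lost under voom (adjusted p = 0.0721) and without naive lin28Tg or let-7Tg replicate 3, 12 h lin28Tg replicate 3 or 12 h let-7Tg replicate 2 (0.0537 to 0.066).

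Bcl2l1 is also 1 of the 2 members whose transcripts hold a match to the let-7 seed, which is the reason for showing the sequences. Members of the let-7 family share bases 2 to 8, the seed, and the transgene let-7g differs from let-7a only outside it. The mature sequences are from RefSeq (GRCm38.p6), with the seed in capitals. The Bcl2l1 site is the 30 bases at chr2:152781184-152781213 (minus strand, GRCm38), in the 3′ UTR of Bcl2l1-202, the longest transcript with a coding sequence, where the match starts at base 947 of 1473, and capitals mark the bases that pair with the seed and the A after them.
let-7g: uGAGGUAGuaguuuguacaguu
let-7a: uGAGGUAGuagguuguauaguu
Bcl2l1 site: accccaggggcttccCTACCTCAggcagga

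The letters searched on the transcript strand were CTACCTCA, CTACCTC and TACCTCA, the shorter motifs lying inside the longer. The Bcl2l1 match occurs in 2 of the gene's 8 coding transcripts, and the gene-level FPKM does not tell which transcripts were present. Pmaip1 has a single match, in 2 of its 3 coding transcripts. The other 8 members had no match, and the Bax transcript used has no annotated 3′ UTR, so nothing was searched there. Of 11147 genes tested at 12 h with a 3′ UTR, 17.1% held a match. Of these, 24.8% were called higher in lin28Tg than in let-7Tg cells, compared with 15.9% of genes without a match, and 11.2% and 15.1% were called lower. In naive cells 29.4 and 23.8% were called higher and 18.7 and 21.7% lower, and in CTLs 15.2 and 10.9% higher and 9.62 and 11.3% lower. These shares were not tested and do not account for the length of the 3′ UTR. Pmaip1, which has a match, was not called at 12 h. A match is a description of the letters, not of binding.

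Bcl2, the founding survival gene of the family, lies at chr1:106538178-106714274 on the minus strand. In naive cells its levels were 34.4, 23.5 and 23.5 FPKM in WT, 26.3, 18.3 and 19.2 in lin28Tg and 35.9, 27.3 and 28.3 in let-7Tg libraries. The lin28Tg libraries lay below the let-7Tg libraries without overlap, and WT overlapped both. Only the difference between lin28Tg and let-7Tg cells was called (log2 -0.52, 95% interval -0.93 to -0.12, adjusted p = 0.0408), and this call was lost without WT replicate 2, lin28Tg replicate 2 or 3 or any let-7Tg replicate (adjusted p 0.05 to 0.154), and with no filter or another scaling (up to 0.0897). For lin28Tg against WT the log2 value was -0.40 (adjusted p = 0.119; 0.0357 without lin28Tg replicate 1).

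At 12 h the 9 libraries lay between 10.6 and 16.9 FPKM, and no genotype differed by test. By day 5, Bcl2 stood at 107, 113 and 136 FPKM in WT, 90.0, 91.9 and 94.3 in lin28Tg and 157, 162 and 169.8 in let-7Tg CTLs. The 3 genotypes formed separate ranges, let-7Tg highest and lin28Tg lowest. The lin28Tg CTLs were below let-7Tg by 0.71 on the log2 scale (log2 -0.71, SE 0.11, 95% interval -0.95 to -0.47, adjusted p = 0.00215), that is 1.64-fold higher in let-7Tg, and this call held in every alternative. The steps to WT on either side did not pass the test in the fit without pairing: let-7Tg against WT was 0.41 (95% interval 0.17 to 0.65, adjusted p = 0.127) and lin28Tg against WT -0.30 (adjusted p = 0.159). With the replicate number as a block, both were called (adjusted p = 0.0313 and 0.0363), and same-numbered CTL libraries did deviate together. The former was also called without WT replicate 3, the highest WT library (log2 0.53, adjusted p = 0.0195).

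Mcl1, which encodes a short-lived survival protein, had the highest FPKM of the 3 survival genes in naive cells, 237 to 299.5 in all 9 libraries, and no genotype was called there except lin28Tg above let-7Tg without let-7Tg replicate 2 (adjusted p = 0.0447). At 12 h the libraries lay between 197 and 224 FPKM. In CTLs it stood at 128, 128 and 111 FPKM in WT, 100.4, 116 and 99.5 in lin28Tg and 149.5, 169 and 127 in let-7Tg libraries. The lin28Tg and let-7Tg ranges did not overlap, and lin28Tg was lower (log2 -0.38, 95% interval -0.63 to -0.13, adjusted p = 0.0387). This call was lost without WT replicate 1 or 2, lin28Tg replicate 1 or 3 or let-7Tg replicate 1 or 2 (adjusted p 0.0565 to 0.138), and with no filter or only the 6 libraries compared (up to 0.0568). The shift of the difference from 12 h to day 5 was called (-0.50, adjusted p = 0.00545), as was that from naive to day 5 (-0.56, adjusted p = 0.0018), and both held in every alternative.

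The balance among the 3 survival transcripts changed with the stage, as shares of their summed FPKM, which correct for gene length. In WT cells Mcl1 made up 88.0% ± 2.13 (SD, n = 3) of the sum in the naive state, 55.0% ± 1.02 at 12 h and 44.1% ± 5.09 at day 5. The Bcl2l1 share was 3.75% ± 0.323, 41.4% ± 0.997 and 13.2% ± 1.42, and the Bcl2 share 8.26% ± 1.90, 3.64% ± 0.816 and 42.6% ± 3.70. So Mcl1 led in naive cells, Mcl1 and Bcl2l1 at 12 h, and Bcl2 and Mcl1 were about level in CTLs.

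The genotypes shifted this balance most at 12 h. The Bcl2l1 share was 51.3, 57.3 and 60.9% in lin28Tg libraries, 41.4, 42.3 and 40.3% in WT and 32.3, 26.2 and 30.9% in let-7Tg. In lin28Tg cells Bcl2l1 was thus the largest of the 3, and in the other genotypes Mcl1 was. With the length of the longest coding transcript in place of the length behind the FPKM, the shares became 48.6 to 58.3, 37.7 to 39.7 and 24.2 to 29.9%, with the same order. In CTLs the ratio of Bcl2 to Bcl2l1 FPKM was 3.19, 3.34 and 3.15 in WT, 3.08, 1.60 and 1.71 in lin28Tg and 4.93, 4.45 and 4.04 in let-7Tg libraries. The 3 genotypes did not overlap in this ratio either. These shares and ratios are descriptions, with no test.

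**Figure D4:**
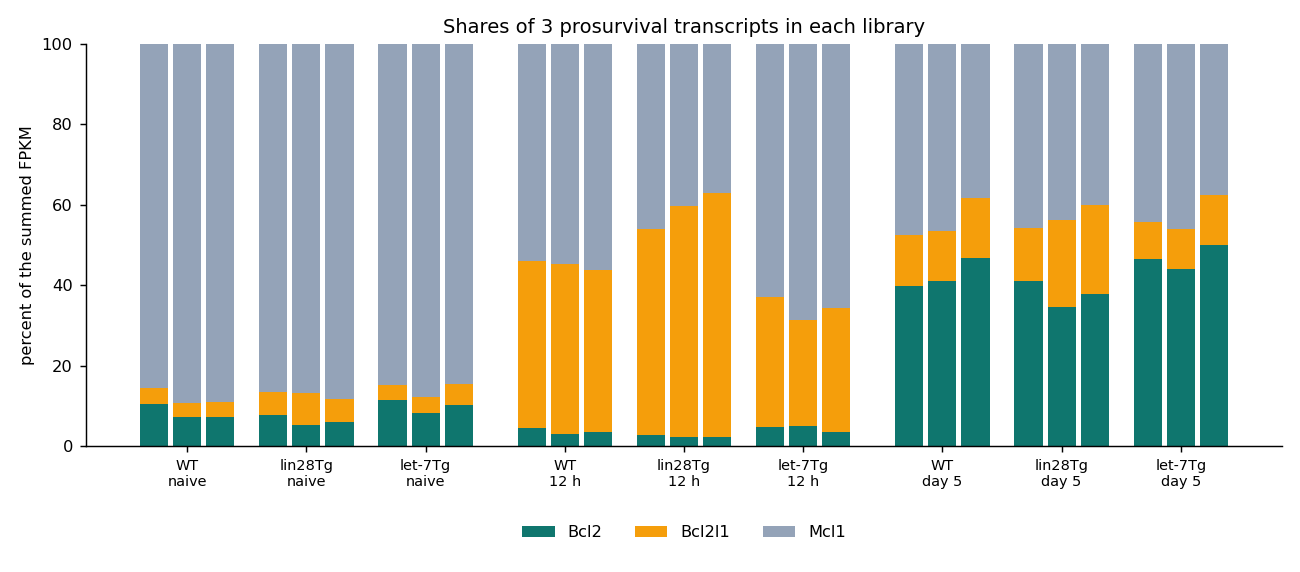
Shares of Bcl2, Bcl2l1 and Mcl1 in their summed FPKM (percent), with 1 stacked bar per library. Naive bars are mostly Mcl1, 12 h bars hold a large Bcl2l1 part that is widest in lin28Tg (51.3 to 60.9%) and narrowest in let-7Tg (26.2 to 32.3%), and day 5 bars are mainly Bcl2 and Mcl1.

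Of the effectors, Bax was above Bak1 in FPKM in every group. Bax rose 3.07-fold in WT cells by 12 h. At that stage it stood at 293, 307 and 302 FPKM in WT, 296, 272 and 275 in lin28Tg and 331, 369 and 320.4 in let-7Tg libraries. The let-7Tg libraries were above all others, and lin28Tg was below let-7Tg (log2 -0.26, 95% interval -0.39 to -0.14, adjusted p = 0.00738) in every alternative. In naive cells the difference had the other sign, with lin28Tg above let-7Tg (log2 0.23, adjusted p = 0.0355). That naive call was lost without lin28Tg replicate 2 or let-7Tg replicate 1 or 3 (adjusted p 0.0633 to 0.127). At day 5 all CTL libraries lay between 136 and 202 FPKM and no genotype was called.

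Bak1 was higher in lin28Tg than in WT naive cells. The WT libraries stood at 30.8, 28.4 and 26.1 FPKM, lin28Tg at 36.4, 42.9 and 39.8 and let-7Tg at 27.4, 31.9 and 30.3. All lin28Tg values exceeded all others, with log2 differences of 0.42 from WT (SE 0.09, adjusted p = 0.00699) and 0.40 from let-7Tg (adjusted p = 0.00606). Without lin28Tg replicate 2, the library richest in myeloid markers, they were 0.37 and 0.35 (adjusted p = 0.0231 and 0.0195), and what the marker RNA contributed was not tested. The 12 h libraries lay between 20.4 and 30.6 FPKM and none was called. In CTLs lin28Tg libraries stood at 69.0, 79.4 and 79.7 FPKM, above WT at 66.2, 66.5 and 65.8 and let-7Tg at 57.6, 66.3 and 62.2. Against let-7Tg this was called (log2 0.40, 95% interval 0.19 to 0.61, adjusted p = 0.016), except without lin28Tg replicate 2 or 3 or let-7Tg replicate 1 (adjusted p 0.0673 to 0.0708), and against WT it was not (log2 0.25, adjusted p = 0.18).

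Among the BH3-only genes, Pmaip1 (Noxa, known for binding Mcl-1) differed most. In naive cells it stood at 5.97, 5.49 and 5.00 FPKM in WT, 10.0, 11.6 and 10.4 in lin28Tg and 7.21, 4.38 and 2.97 in let-7Tg libraries. The lin28Tg libraries were above all others. They were 2.19-fold above let-7Tg (log2 1.13, 95% interval 0.60 to 1.66, adjusted p = 0.00432) in every alternative, and above WT (log2 0.85, SE 0.24, adjusted p = 0.0223). The call against WT was lost without WT replicate 2 or 3 or lin28Tg replicate 2 or 3 (adjusted p 0.0502 to 0.0717). Naive lin28Tg replicate 2, with the highest myeloid sum, also had the highest Pmaip1, and without it the difference from let-7Tg was 1.08 (adjusted p = 0.0148).

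At 12 h Pmaip1 was low in every library, 2.30 to 4.26 FPKM, with no genotype called. In CTLs it stood at 9.01, 13.2 and 8.90 FPKM in WT, 17.5, 21.5 and 18.0 in lin28Tg and 8.76, 10.4 and 9.02 in let-7Tg libraries. Again all lin28Tg libraries were above all others. The lin28Tg CTLs were 1.88-fold above WT (log2 0.91, 95% interval 0.54 to 1.29, adjusted p = 0.02) and 2.11-fold above let-7Tg (log2 1.08, 95% interval 0.71 to 1.45, adjusted p = 0.00231), the latter in every alternative. The former was lost without WT replicate 1 or 3 or lin28Tg replicate 2 or 3 (adjusted p 0.0559 to 0.0762) and in a fit of the 6 libraries alone (0.0575). The difference between lin28Tg and let-7Tg was smaller at 12 h than in naive cells (log2 -1.04, adjusted p = 0.0183) and larger again at day 5 (log2 0.97, adjusted p = 0.0185). The first of these shifts was lost under voom (adjusted p = 0.0525) and without naive lin28Tg replicate 2 or naive let-7Tg replicate 3 (0.0514 and 0.0586).

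Bcl2l11 encodes Bim. In naive cells it was not called, except without WT replicate 1, where lin28Tg was lower than WT and let-7Tg (adjusted p = 0.0312 and 0.0255). At 12 h the libraries stood at 62.6, 56.8 and 67.9 FPKM in WT, 68.4, 58.9 and 48.4 in lin28Tg and 47.9, 39.2 and 35.8 in let-7Tg. The let-7Tg libraries were below all others. The let-7Tg cells were lower than WT (log2 -0.64, 95% interval -0.95 to -0.32, adjusted p = 0.0465) and lin28Tg higher than let-7Tg (log2 0.52, 95% interval 0.20 to 0.84, adjusted p = 0.0224). The first call was lost without any of the 9 libraries other than let-7Tg replicate 1 (adjusted p 0.05 to 0.166) and with no filter or only the 6 libraries compared (up to 0.0983), and the second without lin28Tg replicate 1 or 2 or let-7Tg replicate 2 or 3 (0.0598 to 0.07). Bcl2l11 rose from naive to 12 h in WT cells (2.04-fold) and in lin28Tg cells (1.96-fold), while in let-7Tg cells the ratio was 1.19 and was not called (adjusted p = 0.129). The test of that difference between lin28Tg and let-7Tg was called (log2 0.72, adjusted p = 0.02), and was lost without naive lin28Tg replicate 2, naive let-7Tg replicate 2, 12 h lin28Tg replicate 1 or 12 h let-7Tg replicate 2 or 3 (0.0502 to 0.0595).

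In CTLs Bcl2l11 lay between 59.7 and 92.4 FPKM with no genotype called. Set against Bim in the same library, Bcl2 was highest in let-7Tg CTLs. The ratio of Bcl2 to Bcl2l11 FPKM in CTLs was 2.20, 2.05 and 2.03 in let-7Tg, 1.50, 1.33 and 1.47 in WT and 1.36, 1.54 and 1.15 in lin28Tg libraries. The let-7Tg ratios were above all others, and WT and lin28Tg overlapped. At 12 h the let-7Tg ratios were likewise the highest, at 0.310, 0.417 and 0.297, with WT and lin28Tg libraries between 0.194 and 0.269. These ratios are descriptions, with no test.

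Bbc3, which encodes Puma, varied most between replicates. In naive cells it stood at 63.5, 64.1 and 112 FPKM in WT, 68.5, 58.0 and 73.9 in lin28Tg and 91.2, 94.1 and 45.3 in let-7Tg libraries, and no genotype was called. In CTLs the lin28Tg libraries, at 31.0, 18.0 and 27.7 FPKM, lay below WT at 73.1, 40.5 and 38.4 and let-7Tg at 61.6, 46.5 and 35.2. The differences did not pass the test without pairing, at -0.89 from WT (adjusted p = 0.127) and -0.78 from let-7Tg (95% interval -1.43 to -0.13, adjusted p = 0.0839). With the replicate block both were called (adjusted p = 0.017 and 0.0102). Without WT replicate 1, the highest library, the difference from let-7Tg was also called (adjusted p = 0.0459).

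Bad, a BH3-only protein held inactive by growth factor signalling, had few reads, 62 to 433 per library. Its genotypes separated at 12 h, with 5.74, 5.62 and 5.94 FPKM in WT, 7.67, 6.42 and 6.98 in lin28Tg and 4.33, 4.87 and 4.68 in let-7Tg libraries. The 3 ranges did not overlap, and lin28Tg exceeded let-7Tg 1.47-fold (log2 0.56, 95% interval 0.33 to 0.79, adjusted p = 0.00352) in every alternative. The steps to WT were not called (adjusted p = 0.179 and 0.115). In naive cells lin28Tg was called above WT (log2 0.36, adjusted p = 0.0305) and let-7Tg (log2 0.30, adjusted p = 0.048). Both naive calls were lost without WT replicate 1, 2 or 3 or lin28Tg replicate 2 or 3, and the latter also without let-7Tg replicate 1 or 3 (adjusted p 0.057 to 0.0903 and 0.059 to 0.139), with no filter, with voom and with only the 6 libraries compared (up to 0.0739).

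Bid, which caspase-8 cleaves to link death receptors to mitochondria, was lower in lin28Tg than in WT cells at 12 h. It stood there at 42.0, 45.6 and 45.4 FPKM in WT, 35.9, 38.9 and 33.7 in lin28Tg and 40.7, 42.9 and 41.9 in let-7Tg libraries. The lin28Tg libraries were below all others (log2 -0.31 from WT, 95% interval -0.47 to -0.15, adjusted p = 0.0266), a call lost without WT replicate 1, 2 or 3 or lin28Tg replicate 1 or 3 (adjusted p 0.0549 to 0.116). Against let-7Tg the value was -0.20 (adjusted p = 0.0562), called without lin28Tg replicate 2 (0.044) and with no scaling (0.0408). In CTLs replicate 3 was the highest in all 3 genotypes, at 34.8 FPKM in WT, 32.6 in lin28Tg and 26.6 in let-7Tg, against 16.6 to 26.9 in the other libraries. The lin28Tg and let-7Tg difference of 0.53 was not called without the replicate block (adjusted p = 0.215) and was called with it (adjusted p = 0.00914).

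To ask how the family moved through activation, the stages were compared within WT cells. Each of these 3 comparisons shares a stage with the others, and culture and stimulus changed with the stage, so that these and time cannot be told apart. The values of each stage were also deposited separately. The paper describes the day 5 cells under 1 RNA-seq analysis and the naive and 12 h cells under another. These divisions cannot be told apart from stage either. From naive to 12 h, 9 of the 10 genes were called, 4 higher and 5 lower, where 71.0% of 14449 genes were called. From 12 h to day 5, 9 were called (5 higher, 4 lower; 67.5% of all genes), and from naive to day 5, 7 were called (6 higher, 1 lower; 65.4%).

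At 12 h, Bcl2l1 (14.7-fold), Bax (3.07-fold), Bid (2.32-fold) and Bcl2l11 (2.04-fold) rose, and Bbc3 fell most, from 80.0 ± 27.99 to 10.6 ± 2.82 FPKM (SD, n = 3), 6.04-fold lower. Bcl2, Bad, Pmaip1 and Mcl1 fell less, by 0.70, 0.89, 0.67 and 0.21 on the log2 scale. The fall of Mcl1 (adjusted p = 0.0345) was lost without naive replicate 2 or 3 or any 12 h replicate (adjusted p 0.0565 to 0.0987). Bak1 did not pass the test (log2 -0.05, adjusted p = 0.657), though it did with no scaling between libraries (adjusted p = 0.00478), a setting that moves the median of all genes by -0.16 in this comparison.

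Between 12 h and day 5 most of these directions turned. Bcl2 rose 7.57-fold, Bbc3 4.07-fold, Pmaip1 3.03-fold, Bak1 2.55-fold and Bad 2.21-fold, while Bcl2l1 fell 4.73-fold and Bax, Bid and Mcl1 fell by 1.03, 1.01 and 0.93 on the log2 scale. Bcl2l11 did not pass the test (log2 0.25, adjusted p = 0.129), though it did without day 5 replicate 1 (0.0466) and with no scaling (0.0118). Against naive cells, CTLs thus had more Bcl2 (4.66-fold), Bcl2l1 (3.10-fold), Bak1 (2.47-fold), Bcl2l11 (2.42-fold), Pmaip1 (1.90-fold) and Bax (1.50-fold), and less Mcl1 (2.21-fold lower). Bad and Bbc3 did not pass (adjusted p = 0.057 and 0.119), but did without day 5 replicate 3 for Bad (0.00332) and without day 5 replicate 1 for Bbc3 (0.0307).

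In lin28Tg cells 9, 9 and 8 members were called across the same 3 stage comparisons (73.5, 66.3 and 68.0% of all genes), and in let-7Tg cells 6, 10 and 7 (69.3, 67.1 and 62.6%). From naive to 12 h Bcl2l1 rose 16.4-fold in lin28Tg and 7.93-fold in let-7Tg cells. From 12 h to day 5 Bcl2 rose 6.71-fold in lin28Tg and 10.5-fold in let-7Tg cells, a difference that missed the threshold (log2 -0.65, adjusted p = 0.0578) but was called with the replicate block (0.0360), with no scaling (0.0353) and without 12 h let-7Tg replicate 2 (0.0491). Over all 10 genes, the difference between lin28Tg and let-7Tg cells was called to change from naive to 12 h for 5 (13.3% of all genes), from 12 h to day 5 for 6 (20.2%) and from naive to day 5 for 1, Mcl1 (25.4%).

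Across the 9 groups, the level of each member ordered the groups as follows. For Bcl2 the CTL groups were highest, in the order let-7Tg (163 ± 6.44 FPKM), WT (119 ± 14.9) and lin28Tg (92.1 ± 2.14), each apart from the next. The naive groups came after, let-7Tg, WT and lin28Tg at 30.5, 27.1 and 21.3 FPKM on average, where WT overlapped both neighbours and lin28Tg and let-7Tg did not overlap each other, and the 12 h groups last, between 12.8 and 13.9. For Bcl2l1 the order was lin28Tg, WT and let-7Tg at 12 h (303 ± 55.0, 157 ± 9.67 and 93.1 ± 8.59 FPKM), each apart from the next, then the overlapping CTL groups, then naive lin28Tg (21.5 ± 4.84), and naive let-7Tg and WT, which overlapped. Mcl1 went from naive to 12 h to CTL groups, and its genotypes overlapped their neighbours within each stage.

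The genes whose mean levels over the 9 groups tracked a member most closely (Pearson's r on log2 values of 9057 genes, groups sharing stage and culture, a description with no p) were G2e3, Gm28875 and Uevld for Bcl2, with r between 0.990 and 0.991. For Bcl2l1 they were Sf3b5 and Nkain1 (r = 0.992) and Hras (r = 0.989), and for Bcl2l11 Nemp1 (r = 0.974), Exosc8 (0.966) and Tdp2 (0.965).

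The rest of the apoptosis machinery was followed through 50 further genes in 6 lists, tested at 46, 46 and 44 genes in the 3 stages. Between lin28Tg and let-7Tg cells, 14 were called higher and 7 lower in naive cells, 9 higher and 8 lower at 12 h, and 8 higher and 3 lower in CTLs. The shares of all genes called in the same comparisons were 44.3, 30.9 and 21.6%, so these counts do not set the lists apart from other genes. At 12 h this total of 17 fell to 4 and 5 without lin28Tg replicate 2 or 3, to 10 without lin28Tg replicate 1 or let-7Tg replicate 3 and to 11 without let-7Tg replicate 1, and at day 5 the total of 11 fell to 6 without lin28Tg replicate 2 or let-7Tg replicate 1. Calls over all genes at 12 h fell as well, from 3777 of 12231 to 2265 of 12072 and 2362 of 12069 without lin28Tg replicate 2 or 3. Against WT, 18 of the 46 were called for lin28Tg in naive cells, where 34.9% of all genes were called.

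Among the other survival relatives, the Bcl2a1 genes, which encode A1 and are known from activated lymphocytes and myeloid cells, were higher in naive lin28Tg cells. Bcl2a1d stood at 20.4 ± 3.50 FPKM against 6.67 ± 2.34 in let-7Tg (log2 1.58, adjusted p = 0.00115), Bcl2a1a at 12.6 against 3.62 and Bcl2a1b at 1.76 against 0.674. These genes are near-identical copies, so reads may be shared between them and the values of each are uncertain. The myeloid markers were high in the same 3 libraries, and their part in this difference was not tested.

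In the apoptosome and caspase list, Cycs, which encodes cytochrome c, was higher in naive lin28Tg cells (53.7 against 34.5 FPKM, log2 0.63, adjusted p = 0.000569), while Diablo, which encodes a protein that relieves caspase inhibition, and Casp8, the initiator downstream of death receptors, were lower there (log2 -0.39 and -0.33). Of the 12 genes in the list, 5, 3 and 3 were called higher and 3, 3 and 1 lower in the 3 stages.

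Among the inhibitors of apoptosis, Birc5, which encodes survivin and is also known for its part in mitosis, differed most. It stood at 8.43, 12.5 and 15.8 FPKM in naive lin28Tg libraries and at 0.573 to 0.731 in let-7Tg (log2 3.44, adjusted p = 1.58e-05), and at 6.58, 14.3 and 11.4 against 0.122 to 0.295 at 12 h (log2 3.93, adjusted p = 6.18e-05). In CTLs all libraries lay between 63.2 and 93.5 FPKM and Birc5 was not called. Birc3 was higher in lin28Tg CTLs (log2 0.51, adjusted p = 0.0135), a call lost without lin28Tg replicate 2 (0.0614). The calls of Birc3 in naive cells (adjusted p = 0.0350) and Birc6 at 12 h (0.0381) were lost in 5 and 11 of 17 alternatives.

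In the death receptor list, Fas turned its direction with the stage. It was higher in lin28Tg than in let-7Tg cells at 12 h, with 18.5, 22.0 and 27.1 against 10.1, 13.0 and 8.38 FPKM (log2 1.08, adjusted p = 0.00346), and lower in CTLs, with 7.68, 4.70 and 4.24 against 15.7, 13.6 and 9.46 FPKM (log2 -1.06, adjusted p = 0.00962). The groups did not overlap at either stage, and the change between the stages was called (log2 -2.17, adjusted p = 4.25e-06). Tnfrsf1a, a receptor for tumour necrosis factor, was lower in lin28Tg cells at 12 h (log2 -0.53, adjusted p = 0.00317).

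Among the further BH3-only and BCL2-like genes, Bnip3, known from hypoxia and mitophagy, turned the other way. It was lower in lin28Tg at 12 h (2.23 against 6.16 FPKM, log2 -1.29, adjusted p = 0.00389) and higher in CTLs (299 against 167 FPKM, log2 0.97, adjusted p = 0.00287), with the change between the stages called (log2 2.26, adjusted p = 5.39e-05). Bik, a BH3-only gene at low level, was lower in lin28Tg CTLs (1.24 against 3.07 FPKM, adjusted p = 0.00555). Among the regulators of the members, Foxo1, which encodes a transcription factor of the FOXO family, was lower in naive lin28Tg cells (31.9 against 43.0 FPKM, log2 -0.43, adjusted p = 0.00296), Foxo3 was lower as well (log2 -0.32), and Vdac2, which encodes a mitochondrial channel that binds Bak, was higher (log2 0.37, adjusted p = 0.000579). In CTLs Ddit3, which encodes the stress factor CHOP, was higher in lin28Tg cells (log2 0.62, adjusted p = 0.00417).

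**Figure D5:**
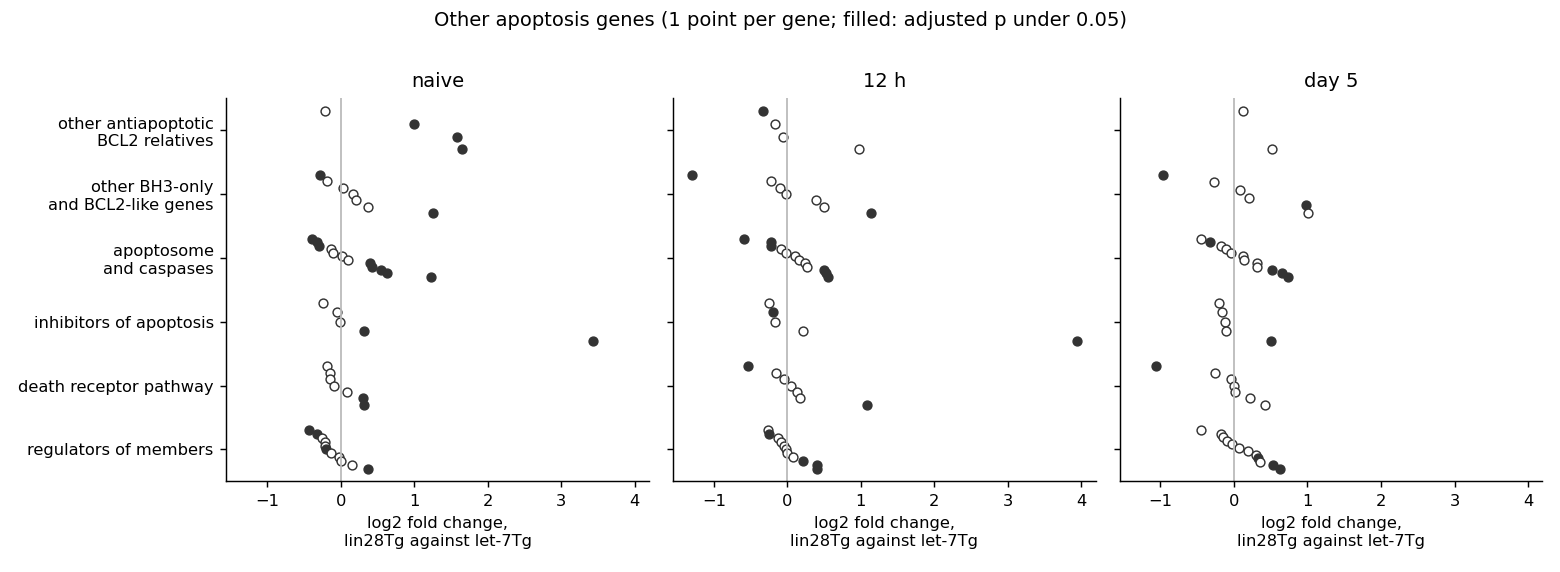
Log2 fold change, lin28Tg against let-7Tg, of each tested gene in 6 lists of other apoptosis genes at the 3 stages, with 1 point per gene, filled where the adjusted p was below 0.05. Birc5 lies alone at 3.44 in naive and 3.93 in 12 h cells, and most of the other genes lie within 1 log2 unit of no difference.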

How the data were processed

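The authors aligned paired reads to the mouse genome (GRCm38/mm10) with TopHat2 2.0.9 on a Bowtie2 2.0.6 index, counted them per gene with HTSeq 0.6.1 and deposited FPKM values for each library, the values used here. The annotation release is not given in the sources used here, so levels of different genes depend on the gene lengths the authors chose. The deposited mean signal per group (counts divided by size factors by the authors) entered the recovery of library totals, gene lengths and reads. Deposited fold changes and p-values were not used. With the recovered lengths and totals, 100.0% of the 462839 values above 0 came out as whole reads (tolerance 0.01 reads).

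FPKM were scaled between libraries by trimmed means of log ratios, and log2(FPKM + 0.5) was tested with limma 3.58.1 (R 4.3.3) with Benjamini-Hochberg adjustment. Genes needed the equivalent of 10 reads in at least 3 libraries and 15 reads in all. Genotypes were compared in 1 fit of 9 libraries per stage, and stages and differences between stages in 1 fit of 27 libraries. A fold change on this scale understates the change of low genes. The fits were tested on simulated data. The replicates are biological by the study's methods, and whether a library is 1 mouse is not stated, so p-values measure the spread between these samples. They differed by more than counting noise in all 27 replicate pairs. Same-numbered libraries deviated together in every pair at day 5 (r 0.25 to 0.71) and for WT and let-7Tg at 12 h (0.24 to 0.54), which comes from the data and not the labels.

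Gene IDs were matched to GENCODE M21 (34490 of 35275). The members, the lists of other genes and the markers were chosen with earlier results of these data known. Other genes were named by rule, up to 4 per list and stage, ranked by adjusted p within the lin28Tg against let-7Tg calls, and of these mostly the genes called in every alternative are described; 1 gene that the rule names is not reported here. Alternatives were the pseudocount (0.1 and 1), the filter, the scaling, a replicate block, only the 6 libraries compared, voom on the reads, and each library left out. Those on differences between stages and on other genes were added after seeing the data. No step of purifying CD8 T cells before lysis is described in the sources used here.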

Additional observations from a re-analysis of the deposited data

Results flagged for a closer look

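The lin28Tg against let-7Tg difference of 7 members changed between stages by a direct test (limma interaction terms over 27 libraries, Benjamini-Hochberg adjusted), 12 changes in all. Over all genes tested, 13.3% were called to change from naive to 12 h, 20.2% from 12 h to day 5 and 25.4% from naive to day 5. From naive to 12 h it moved toward lin28Tg for Bcl2l1 (log2 1.05) and Bcl2l11 (0.72, from -0.21 in naive cells to 0.52 at 12 h), and toward let-7Tg for Bax (-0.50), Bak1 (-0.47) and Pmaip1 (-1.04). From 12 h to day 5 it moved toward let-7Tg for Bcl2l1 (-1.31), Mcl1 (-0.50), Bcl2l11 (-0.61) and Bad (-0.52), and toward lin28Tg for Bak1 (0.44) and Pmaip1 (0.97). From naive to day 5 it moved toward let-7Tg for Mcl1 (-0.56). From naive to 12 h, the Bax change was lost without naive lin28Tg replicate 2 or let-7Tg replicate 3 (adjusted p 0.0576 and 0.0584), and the Bak1 change with voom (0.0529) and without naive lin28Tg replicate 2, naive let-7Tg replicate 1, 12 h lin28Tg replicate 1 or 12 h let-7Tg replicate 3 (0.0565 to 0.0679). From 12 h to day 5, the Bak1 change was lost without 12 h lin28Tg replicate 1, 12 h let-7Tg replicate 3 or day 5 let-7Tg replicate 1 (0.0555 to 0.0733). The Bcl2l11 change was lost with no filter (0.0662) and without lin28Tg replicate 1 or 2 or let-7Tg replicate 2 or 3 of either stage (0.0629 to 0.150). The Bad change was lost with voom (0.0900) and without replicate 1 of either genotype at 12 h, any lin28Tg replicate at day 5 or let-7Tg replicate 1 or 2 at day 5 (0.0505 to 0.0696). The myeloid and erythroid marker sums were highest in the naive lin28Tg libraries, and their part in the changes from the naive stage was not tested.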

How the results depend on the processing

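No result turned its direction past the threshold in any alternative. Counts of called members moved by over 1.5 times in these settings, beside single libraries and the block: let-7Tg against WT at 12 h gave 2, but 0 with no filter and 1 with only the 6 libraries compared. Over all genes, the calls in that comparison went from 399 of 12231 to 79 of 21559 and 38 of 11778. For lin28Tg against WT at day 5 the count was 1, but 0 with only the 6 libraries. The difference between stages from naive to 12 h gave 5, but 2 with voom. That difference was called for 1923 of all 14449 genes tested, and for 832 with voom. The 17 other apoptosis genes called at 12 h became 11 with no filter and 10 with only the 6 libraries, and the 11 at day 5 became 7 with no filter. Over all genes, lin28Tg against let-7Tg at 12 h went from 3777 of 12231 to 3070 of 21559 and 3140 of 12022 called. Smaller moves were from 6 to 4 with no filter and to 5 with voom, with only the 6 libraries or with median of ratios scaling for lin28Tg against let-7Tg in naive cells, from 4 to 3 with no filter or only the 6 libraries for the same comparison at day 5, from 4 to 5 with no scaling at 12 h, and from 6 to 5 with no filter or voom and to 7 with no scaling for the difference from 12 h to day 5. The WT stage counts moved by at most 1. The causes were not tested.

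Leaving out each library gave 2 to 5 members for lin28Tg against WT and 3 to 6 for lin28Tg against let-7Tg in naive cells. At 12 h the ranges were 1 to 2 for lin28Tg against WT and 0 to 2 for let-7Tg against WT. At day 5 they were 0 to 1 for each genotype against WT and 2 to 4 for lin28Tg against let-7Tg. For the differences between stages they were 1 to 5 from naive to 12 h and 3 to 6 from 12 h to day 5, and for other apoptosis genes 4 to 16 at 12 h and 6 to 14 at day 5. Calls over all genes also moved. For let-7Tg against WT they ran from 5 of 12195 to 697 of 12160 at 12 h. At day 5 they ran from 2 of 12868 to 314 of 12981. For lin28Tg against let-7Tg at 12 h the range was 2265 of 12072 to 3746 of 12141.

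With the replicate number as a block, the paired day 5 libraries gave 3 members for lin28Tg against WT, 1 for let-7Tg against WT and 17 other apoptosis genes for lin28Tg against let-7Tg. Over all genes, let-7Tg against WT at day 5 gave 533 calls of 13016 with the block and 122 without it. In naive cells, where the numbers do not pair the libraries, the block called Bcl2 between lin28Tg and WT (adjusted p = 0.00520). From 12 h to day 5 it called the change in Bid (0.0485). Of the 150 member results, the block made 8 newly called and lost none, no scaling made 4 newly called, and voom lost 5. No scaling moved the median of all genes by up to 0.178 on the log2 scale between naive and 12 h cells. It moved the split of all calls for lin28Tg against let-7Tg CTLs from 1413 higher and 1397 lower to 1077 and 2000. The reads behind Bad and Pmaip1, at least 62 and 101 per library, limit what can be seen of those genes.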
